A study of Mus musculus with 12 samples.

Results

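The comparison described here set lung tumour cells that had lost Lkb1 against lung tumour cells in which Sik genes were targeted with Cas9, over every gene that could be tested. It takes 8 of the 12 libraries of the series: 3 with the genotype KT;Lkb1f/f, called Lkb1-deleted, and 5 with the genotype label KT;H11LSL-Cas9_sgSik, called Sik-targeted. Of the latter, 3 are titled sgSik1 and 2 are titled sgSik1-3, and the titles do not say what that range covers. The other 4 libraries are KT tumours, the background that all groups carry, and they serve here as the level from which both groups depart. KT is not spelled out in the labels. Lkb1f/f means floxed Stk11 alleles that Cre removes, and H11LSL-Cas9 is a Cas9 allele at the H11 locus that Cre switches on, so the guides act in the cells that Cre reached. All mice were of mixed BL6/129 strain, no age is given, and cells were sorted from lung cancers after removal of cells bearing CD45, CD31, F4/80 or Ter119. Alternative names give the Lkb1-deleted libraries different animal-like numbers but separate the Sik-targeted libraries only by a tumour number. Whether the Sik-targeted tumours came from separate animals is not given, and p-values here reflect how much single libraries vary, a spread that may be technical.

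Lkb1 is a kinase that switches on a family of related kinases by phosphorylating their activation loop. AMPK, the energy sensor of the cell, belongs to this family, and so do Sik1, Sik2 and Sik3, the salt-inducible kinases. SIKs hold CRTC coactivators and class IIa histone deacetylases in the cytoplasm, and when SIKs are inactive, CRTCs enter the nucleus and drive CREB target genes. Loss of Lkb1 takes away the input to the whole family, while guides against Sik genes touch one branch, and the direct comparison asks where the tumour cells with these changes differ.

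Total counts were 6427769 to 9460177 in the Lkb1-deleted libraries and 5666378 to 13955181 in the Sik-targeted ones, and 4 abundant transcripts took 18.4% to 74.2% of a library's counts. The epithelial marker Epcam stood at 118 to 338 CPM (counts scaled by the effective library size) in the Lkb1-deleted and 159 to 388 in the Sik-targeted libraries, and the lung lineage factor Nkx2-1 at 173 to 332 and 137 to 410 CPM. The leukocyte marker Ptprc did not exceed 0.724 CPM in the 8 libraries. All 11 listed leukocyte markers, Ptprc included, summed to 314, 101 and 82.3 CPM in Lkb1-deleted replicates 1 to 3. The same sum was 128 to 326 CPM in Sik-targeted and 194 to 242 CPM in KT libraries. Lkb1-deleted replicate 1 stood apart from the other members of its group. A multidimensional scaling was made from the genes that differed most between each pair of libraries. On its first axis Lkb1-deleted replicate 1 lay at 1.98, beside the Sik-targeted libraries (0.24 to 1.99), while Lkb1-deleted replicates 2 and 3 lay at -1.78 and -1.17. Among 42 gene lists with at least 3 tested members, the mean level of replicate 1 was nearer to the Sik-targeted mean than to that of replicates 2 and 3 in 31. Y-linked genes had counts in Lkb1-deleted replicates 2 and 3 and in both sgSik1-3 libraries (49.2 to 70.6 CPM in sum) and under 2 CPM in the others, so this split runs across both groups. Among Sik-targeted libraries it is the same as the split by guide set, and these cannot be told apart. Among Lkb1-deleted libraries it sets replicate 1 apart from replicates 2 and 3. For a named gene whose direct call, or whose difference by over 1.5 times, moved without replicate 1, that value is given too.

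Of 13575 genes tested, 30 passed an adjusted p of 0.05 between Lkb1-deleted and Sik-targeted cells (0.221%), 14 higher in Lkb1-deleted (0.103%) and 16 higher in Sik-targeted cells (0.118%). Adjusted p-values are from edgeR's quasi-likelihood test with Benjamini-Hochberg adjustment, and differences are log2 Lkb1-deleted minus Sik-targeted with their standard error (SE). At an unadjusted p under 0.05 there were 1723 genes (12.7%), and the CPM of the groups did not overlap for 730 genes (5.38%), against 29 of the 30 that passed. The median difference of all tested genes was -0.02. Without Lkb1-deleted replicate 1, 710 of 15260 genes passed (4.65%), 338 higher and 372 lower in Lkb1-deleted cells, and all 30 remained among them. Without sgSik1 replicate 2, the Sik-targeted library nearest to KT on the first axis, 271 genes passed, again with all 30.

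Leaving out other libraries lowered the count. It was 5 without Lkb1-deleted replicate 3, with 4 of the 30 kept, and 12 without Lkb1-deleted replicate 2, with 11 kept. It was 13, 12, 12 and 9 without sgSik1 replicate 1, sgSik1 replicate 3, sgSik1-3 replicate 1 and sgSik1-3 replicate 2, with 12, 12, 12 and 9 kept. KT libraries enter the estimate of the spread, and the count was 28, 8, 10 and 18 without KT replicates 1 to 4, with 25, 8, 10 and 18 kept. With the 8 compared libraries fitted alone no gene passed in edgeR (lowest adjusted p 0.0614), although 1010 of 11789 genes, all 30 among them, had an unadjusted p under 0.05 in the same direction. All 30 kept their direction when any 1 library was left out, and Car9, Mixl1 and Steap2 passed in all 12 of those fits.

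**Figure D1:**
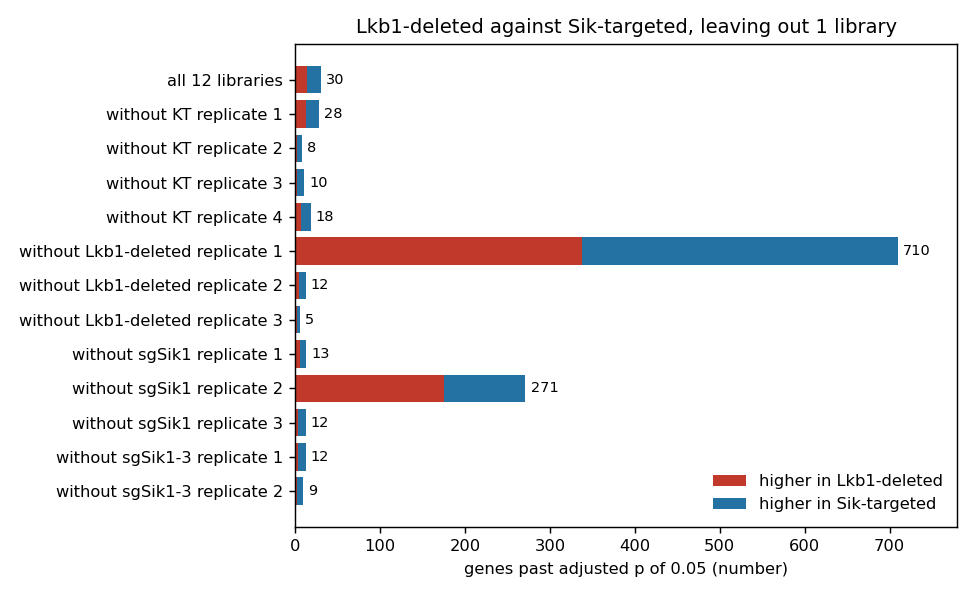
Bars give the number of genes past an adjusted p of 0.05 between Lkb1-deleted and Sik-targeted cells with all 12 libraries and with each library left out in turn, split by direction. The count is 30 with all libraries, 710 without Lkb1-deleted replicate 1, 271 without sgSik1 replicate 2 and 5 to 28 without any other.

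The targeted genes were read first. Stk11, which encodes Lkb1, stood at 9.23, 16.6 and 9.92 CPM in Lkb1-deleted replicates 1 to 3, at 137, 22.6 and 30.1 with sgSik1 and at 32.6 and 59.2 with sgSik1-3. The Lkb1-deleted libraries were the 3 lowest of the 8 and did not overlap the Sik-targeted ones, with a difference of -2.23 (SE 0.54, adjusted p 0.113). Reads from exons outside the floxed part are counted too, so this level does not measure the protein.

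Sik3 had 38.5, 56.7 and 53.4 CPM in Lkb1-deleted libraries, 21, 20.9 and 9.17 with sgSik1 and 8.74 and 11.9 with sgSik1-3. It was 3.46-fold higher in Lkb1-deleted cells without overlap but missed the threshold, with a difference of 1.79 (SE 0.36, adjusted p 0.0544), and passed without Lkb1-deleted replicate 1 at 1.93 (SE 0.40, adjusted p 0.0106). Sik1 and Sik2 overlapped between the groups, with differences of -0.39 (SE 0.46, adjusted p 0.779) and 0.32 (SE 0.36, adjusted p 0.765), whose 95% intervals were -1.37 to 0.59 and -0.45 to 1.08. Every library of both groups lay above every KT library for these 2 genes. Guide-made indels need not lower RNA, so these levels do not measure how well a guide worked.

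The genes higher in Lkb1-deleted cells are given first. Thrombospondin 1 (Thbs1), a matrix protein that can activate latent TGF-beta, stood at 669, 1090 and 1090 CPM in Lkb1-deleted replicates 1 to 3, at 134, 222 and 46.8 with sgSik1, at 20.1 and 97.9 with sgSik1-3 and at 62.2 to 234 in KT libraries. The lowest Lkb1-deleted library was above all the others, and the difference was 3.18 (SE 0.59, adjusted p 0.0374), or 9.09-fold. Thrombospondin 3 (Thbs3, chr3:89215180-89226841), a related pentameric matrix protein, stood at 18.6, 26 and 52.7 CPM in Lkb1-deleted libraries, 5.4, 7.12 and 2.51 with sgSik1, 2.36 and 4.89 with sgSik1-3 and 21.8 to 25.2 in KT libraries. Here the Sik-targeted libraries were the low ones, below both KT and Lkb1-deleted cells, with a difference of 2.87 (SE 0.42, adjusted p 0.00911). Thbs3 missed the threshold only without Lkb1-deleted replicate 3 (2.32, adjusted p 0.0707). Thbs1 missed it when any of 8 libraries was left out (adjusted p up to 0.153).

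Itih4 (chr14:30886476-30901986), a plasma protein of the inter-alpha-trypsin inhibitor family, stood at 303, 175 and 329 CPM in Lkb1-deleted libraries, 38.7, 78.3 and 33.2 with sgSik1, 23.9 and 35.3 with sgSik1-3 and 146 to 258 in KT libraries. Its difference was 2.68 (SE 0.38, adjusted p 0.00805), against 2.51 (adjusted p 0.0501) without Lkb1-deleted replicate 3, the only library whose omission ended the call. Cp, the copper-carrying ferroxidase ceruloplasmin, ranged over 8.82 to 20.7 CPM in Lkb1-deleted libraries, 1.09 to 4.98 in Sik-targeted and 19.7 to 53.2 in KT libraries, a difference of 2.84 (SE 0.49, adjusted p 0.0272). Megf6, a secreted protein with EGF-like repeats, ranged over 20.3 to 43.3, 1.18 to 9.38 and 13.9 to 23.3 CPM in the same order, a difference of 2.46 (SE 0.45, adjusted p 0.0347). Cp and Megf6 lost their call when any of 7 and 8 libraries was left out (adjusted p up to 0.144 and 0.114). For Itih4, Cp and Megf6 the Sik-targeted libraries lay below every KT and every Lkb1-deleted library.

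Ros1, a receptor tyrosine kinase of lung epithelium, stood at 33.9, 14.6 and 33.4 CPM in Lkb1-deleted libraries, 1.99, 7.26 and 8.02 with sgSik1, 5.43 and 4.52 with sgSik1-3 and 45 to 83.4 in KT libraries. The 3 genotypes formed 3 separate levels, KT highest and Sik-targeted lowest, and the difference between the targeted groups was 2.29 (SE 0.41, adjusted p 0.0321). Spry1, a feedback inhibitor of MAPK signalling, stood at 48.1, 61.5 and 62.4 CPM in Lkb1-deleted libraries, 19.6, 23.5 and 16.4 with sgSik1, 19.6 and 13.8 with sgSik1-3 and 33.4 to 45.4 in KT. Spry1 had the smallest difference of the genes that passed, 1.63 (SE 0.28, adjusted p 0.0267), with libraries closely spaced within each group. Grb10, an adaptor that restrains insulin and IGF receptor signalling, ranged over 24.2 to 45.3 CPM in Lkb1-deleted and 3.54 to 12.2 in Sik-targeted libraries, a difference of 2.23 (SE 0.39, adjusted p 0.0284), with KT at 24.9 to 43.3. Each of these calls was lost when any of 7 libraries was left out (adjusted p up to 0.128, 0.161 and 0.166).

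The rest include channels, a transporter and an enzyme. Slc1a3, a glutamate transporter, stood at 5.35, 19.9 and 21.1 CPM in Lkb1-deleted libraries, 0.284, 3.7 and 0.491 with sgSik1 and 0.472 and 0.905 with sgSik1-3, a difference of 3.66 (SE 0.68, adjusted p 0.0374). Kcnj13, an inwardly rectifying potassium channel, stood at 2.19, 9.05 and 12.7 CPM in Lkb1-deleted libraries, 0.853, 1.42 and 0.437 with sgSik1 and 0.709 and 0.181 with sgSik1-3, a difference of 3.47 (SE 0.59, adjusted p 0.0267). In both genes Lkb1-deleted replicate 1 and a single sgSik1 library came close to each other, and replicates 2 and 3 were higher. Ryr2, a calcium release channel best known from heart muscle, was the 1 gene that passed with overlapping groups, at 0.607, 62.8 and 34.5 CPM in Lkb1-deleted libraries, 0.284, 1.99 and 0.6 with sgSik1 and 1.42 and 0.543 with sgSik1-3. Its difference of 5.05 (SE 0.90, adjusted p 0.0321) rested on replicates 2 and 3, and among the libraries without Y-linked counts it was -0.68. Arg2, the mitochondrial arginase, ranged over 17.5 to 36.2 CPM against 2.56 to 9.11, a difference of 2.09 (SE 0.40, adjusted p 0.0441), and Bex2, a small X-linked gene expressed in brain, over 7.72 to 19.7 against 0.284 to 3.13, a difference of 3.38 (SE 0.66, adjusted p 0.0495). Slc1a3, Kcnj13, Ryr2, Arg2 and Bex2 lost their call when any of 9, 8, 9, 10 and 9 libraries was left out (adjusted p up to 0.166, 0.11, 0.166, 0.29 and 0.209). The 1 remaining transcript on this side carries a clone name and is counted only.

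**Figure D2:**
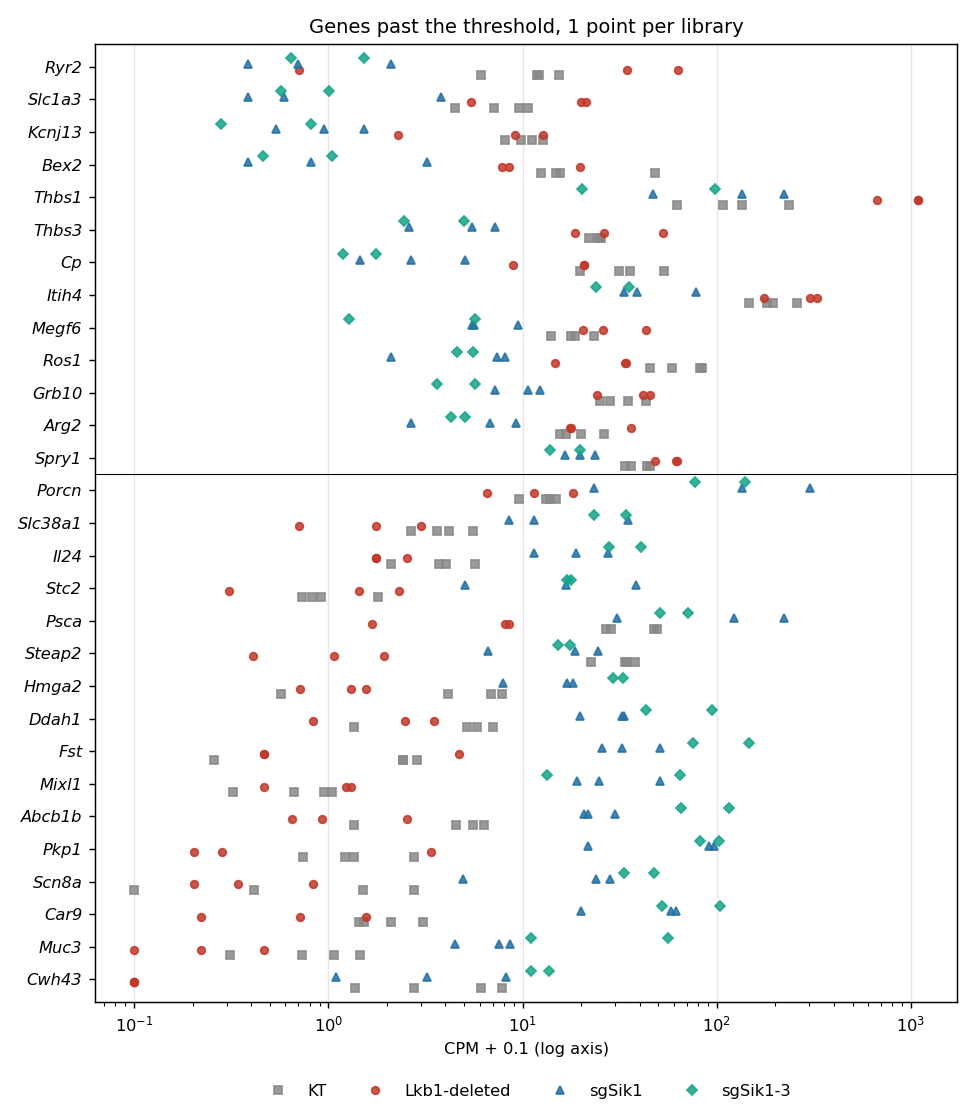
Each point is 1 library's level in CPM, with 0.1 added, on a log axis, for the 29 named genes that passed between Lkb1-deleted and Sik-targeted cells; the line separates 13 genes higher in Lkb1-deleted (above) from 16 higher in Sik-targeted cells. The groups do not overlap except for Ryr2, and KT points lie mostly with the Lkb1-deleted ones.

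Of the genes higher in Sik-targeted cells, Car9 had the lowest p. Car9 (chr4:43507026-43513729), the membrane-bound carbonic anhydrase IX that tumour cells make under low oxygen, stood at 0.121, 0.617 and 1.47 CPM in Lkb1-deleted libraries, 57.7, 19.9 and 61.4 with sgSik1, 52.2 and 104 with sgSik1-3 and 1.42, 1.34, 2.01 and 2.97 in KT libraries. Every Sik-targeted library was above every other library, and the difference of -6.40 (SE 0.73, adjusted p 0.00274), 84.5-fold, had the lowest p of all genes and passed whichever library was left out. Stc2, a secreted glycoprotein induced by hypoxia and by stress of the endoplasmic reticulum, stood at 1.34, 0.206 and 2.2 CPM in Lkb1-deleted libraries, 38.4, 4.98 and 16.7 with sgSik1 and 16.8 and 17.6 with sgSik1-3, a difference of -3.96 (SE 0.75, adjusted p 0.0422). The groups were apart by little in sgSik1 replicate 2, and the Stc2 call was lost when any of 10 libraries was left out (adjusted p up to 0.167).

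Hypoxia-inducible factors bind the core letters ACGTG, which were searched on both strands in the 250 bases before RefSeq gene starts (GRCm38.p6), where the core occurs in 16.6% of 32841 windows. Windows were found for 20 of the 30 genes and held it in 3 of 12 on the Sik-targeted side and 2 of 13 on the Lkb1-deleted side. The 30 bases around each match are shown, because Car9 is the gene with the lowest p, though not the one with the largest difference, and its match lies 18 bases before the start. The sequences are 5′ to 3′ on the gene's strand with the core, or its reverse complement CACGT, in capitals. They lie at chr4:43506996-43507025 (plus) for Car9, chr5:8797937-8797966 (plus) for Abcb1b, chr5:5694240-5694269 (minus) for Steap2, chr1:87394909-87394938 (minus) for Kcnj13 and chr13:12107166-12107195 (minus) for Ryr2.
Car9: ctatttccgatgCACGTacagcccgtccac
Abcb1b: cacttacctgaaCACGTaaagacaagtcta
Steap2: gcgggcgggatcCACGTagggctgctccca
Kcnj13: gcaccccttctcCACGTcagttctagaggc
Ryr2: cgatcaCACGTagaggctccccattctgtg
Of these genes, 3 were higher in Sik-targeted and 2 in Lkb1-deleted cells. The CREB site TGACGTCA was in none of these windows and in 1.55% of all, and its shorter core TGACG, which that site contains, was in 4 of 13 windows on the Lkb1-deleted and 2 of 12 on the Sik-targeted side against 17.8% of all. The AP-1 site TGANTCA was in 1 window on each side against 6.75% of all. A match describes the letters only.

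Mixl1 (chr1:180693043-180697034), a homeobox factor of the early embryo's mesoderm and endoderm, stood at 1.21, 1.13 and 0.367 CPM in Lkb1-deleted libraries, 24.7, 18.9 and 51 with sgSik1, 64.5 and 13.2 with sgSik1-3 and 0.944, 0.223, 0.562 and 0.849 in KT libraries. Lkb1-deleted and KT libraries were all near or below 1 CPM, and the difference of -5.18 (SE 0.69, adjusted p 0.00805) passed whichever library was left out. Hmga2, a chromatin protein used as a marker of lung adenocarcinoma progression, stood at 1.21, 0.617 and 1.47 CPM in Lkb1-deleted libraries, 16.8, 7.83 and 18 with sgSik1 and 32.8 and 29 with sgSik1-3, a difference of -4.26 (SE 0.77, adjusted p 0.0321). Fst, the activin antagonist follistatin, stood at 0.364, 4.63 and 0.367 CPM in Lkb1-deleted libraries, 25.6, 32.3 and 51 with sgSik1 and 146 and 75.1 with sgSik1-3, a difference of -5.12 (SE 0.97, adjusted p 0.0441). Hmga2 and Fst lost their call when any of 9 and 8 libraries was left out (adjusted p up to 0.207 and 0.205).

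Il24 (chr1:130882074-130887411), a cytokine of the interleukin 10 family, stood at 2.43, 1.65 and 1.65 CPM in Lkb1-deleted libraries, 18.8, 11.4 and 27.5 with sgSik1 and 27.6 and 40.5 with sgSik1-3. All Sik-targeted libraries lay above all Lkb1-deleted ones, and the difference was -3.71 (SE 0.51, adjusted p 0.00805), or -3.62 (adjusted p 0.0551) without Lkb1-deleted replicate 3, the 1 omission that ended the call. Porcn, the acyltransferase that prepares Wnt proteins for secretion, ranged over 6.48 to 18 CPM in Lkb1-deleted and 23.1 to 303 in Sik-targeted libraries, a difference of -3.51 (SE 0.66, adjusted p 0.0422), lost when any of 10 libraries was left out (adjusted p up to 0.216). Porcn fell outside the 15 genes per direction that the naming rule takes and was added after its values were seen.

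Genes of junctions and the epithelial surface came next. Pkp1, the desmosomal plaque protein plakophilin 1, stood at 3.28, 0.103 and 0.184 CPM in Lkb1-deleted libraries, 96.9, 21.6 and 90.7 with sgSik1, 102 and 81.4 with sgSik1-3 and 0.637 to 2.65 in KT libraries. All Sik-targeted libraries lay above all others, sgSik1 replicate 2 being the lowest of them, and the difference was -5.99 (SE 0.93, adjusted p 0.0182). Without Lkb1-deleted replicate 1 it was -9.05 (SE 0.96, adjusted p 0.000342). The Pkp1 call was lost without Lkb1-deleted replicate 3 (-5.55, adjusted p 0.0707) or sgSik1 replicate 1 (-5.91, adjusted p 0.0664). Psca, a GPI-anchored antigen of stomach and bladder epithelium, stood at 1.58, 8.02 and 8.45 CPM in Lkb1-deleted libraries, 221, 30.7 and 122 with sgSik1, 50.6 and 71.1 with sgSik1-3 and 26.8 to 49.4 in KT libraries, a difference of -4.04 (SE 0.71, adjusted p 0.0287). The KT range lay above every Lkb1-deleted library and overlapped the Sik-targeted range.

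Muc3, a membrane mucin of the gut, stood at 0.121, 0 and 0.367 CPM in Lkb1-deleted libraries, 8.53, 4.41 and 7.48 with sgSik1, 56 and 10.9 with sgSik1-3 and 0.212 to 1.36 in KT libraries. It had 3 counts in all in the Lkb1-deleted libraries and 495 in the Sik-targeted ones. The ratio was 99.9, with a 95% interval of 34 to 486 that covers counting error only, at an adjusted p of 0.0267. Cwh43, a protein of the GPI anchor pathway, had no count in any Lkb1-deleted library and 3.13, 0.996 and 8.13 CPM with sgSik1, 13.5 and 10.9 with sgSik1-3 and 1.27 to 7.71 in KT libraries. Against the floor of 3 counts over the group it was at least 57.3-fold higher in Sik-targeted cells (adjusted p 0.0296), and KT stood with the Sik-targeted libraries. Psca, Muc3 and Cwh43 lost their call when any of 8, 6 and 8 libraries was left out (adjusted p up to 0.138, 0.151 and 0.151).

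Transport and metabolism made up the rest. Steap2 (chr5:5664829-5694649), a metalloreductase for iron and copper, stood at 0.972, 0.309 and 1.84 CPM in Lkb1-deleted libraries, 6.54, 18.5 and 24.4 with sgSik1, 15.1 and 17.4 with sgSik1-3 and 37.9, 34.5, 33.6 and 22.5 in KT libraries. The Lkb1-deleted libraries were the lowest. Of the Sik-targeted libraries only sgSik1 replicate 3 reached into the KT range, and the others lay between the Lkb1-deleted and KT libraries. The difference of -4.05 (SE 0.57, adjusted p 0.00805) passed whichever library was left out. Abcb1b, a drug efflux pump, stood at 2.43, 0.823 and 0.551 CPM in Lkb1-deleted libraries, 20.7, 21.6 and 29.7 with sgSik1 and 116 and 65.3 with sgSik1-3, a difference of -5.27 (SE 0.81, adjusted p 0.0161). Without Lkb1-deleted replicate 1 it was -6.14 (SE 0.96, adjusted p 0.00273), and the call was lost without Lkb1-deleted replicate 2 (-5.01, adjusted p 0.0987) or replicate 3 (-4.96, adjusted p 0.08). In Abcb1b the sgSik1-3 libraries were higher than the sgSik1 ones, a difference that did not pass between the guide sets.

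Scn8a, a voltage-gated sodium channel, ranged over 0.103 to 0.735 CPM in Lkb1-deleted and 4.84 to 47.4 in Sik-targeted libraries, a difference of -6.36 (SE 1.06, adjusted p 0.0267). Slc38a1, a glutamine transporter, ranged over 0.607 to 2.88 against 8.46 to 34.9 CPM, a difference of -3.68 (SE 0.63, adjusted p 0.0267). Ddah1, which breaks down the nitric oxide synthase inhibitor dimethylarginine, ranged over 0.729 to 3.39 against 19.6 to 94.7 CPM, a difference of -4.35 (SE 0.70, adjusted p 0.0221). Ddah1 missed the threshold without KT replicate 2 (-4.34, adjusted p 0.0537) or Lkb1-deleted replicate 3 (-4.41, adjusted p 0.0833), and Scn8a and Slc38a1 without any of 7 and 5 libraries (adjusted p up to 0.144 and 0.104).

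Set beside KT, most of these genes passed in Sik-targeted rather than in Lkb1-deleted cells. The KT mean was nearer to the Lkb1-deleted mean for 13 of the 14 genes higher in Lkb1-deleted and for 13 of the 16 higher in Sik-targeted cells, as a description, since the comparisons share libraries. Of the 30 genes, 26 passed in Sik-targeted against KT, 3 in Lkb1-deleted against KT, none in both and 1 in neither. Over all tested genes 1679 passed in Sik-targeted against KT (12.4%; 5.81% higher, 6.56% lower) and 158 in Lkb1-deleted against KT (1.16%; 0.611% higher, 0.552% lower), from 5 and 3 libraries against the same 4. With 1 library left out the first count ran from 577 (without KT replicate 2) to 2655 (without Lkb1-deleted replicate 1) and the second from 13 (without KT replicate 3) to 242 (without sgSik1 replicate 1), and without KT replicates 2 and 3 they were 98 and 3. The log2 difference from KT of Car9 was -1.45 (SE 0.68, adjusted p 0.374) in Lkb1-deleted and 4.95 (SE 0.58, adjusted p 0.000377) in Sik-targeted cells, and that of Mixl1 was 0.65 (SE 0.69, adjusted p 0.762) and 5.83 (SE 0.64, adjusted p 0.000365). For Pkp1 it was -0.28 (SE 0.84, adjusted p 0.93) and 5.71 (SE 0.80, adjusted p 0.00152), and for Itih4 0.47 (SE 0.39, adjusted p 0.686) and -2.21 (SE 0.36, adjusted p 0.00251). In these 4 genes the value that passed was the Sik-targeted one.

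Thbs1, Steap2 and Cwh43 were the 3 genes that passed in Lkb1-deleted cells instead. The difference of Thbs1 from KT was 2.81 (SE 0.63, adjusted p 0.0444) in Lkb1-deleted and -0.37 (SE 0.54, adjusted p 0.701) in Sik-targeted cells, and that of Steap2 was -5.02 (SE 0.60, adjusted p 0.00128) and -0.96 (SE 0.40, adjusted p 0.129). Cwh43, with no Lkb1-deleted count, passed in Lkb1-deleted cells (adjusted p 0.029) and differed by 0.69 (SE 0.68, adjusted p 0.542) in Sik-targeted cells. Thbs1 was higher, and Steap2 and Cwh43 lower, in Lkb1-deleted than in KT cells, and none of the 3 passed in Sik-targeted against KT. Psca passed in neither, at -2.66 (SE 0.67, adjusted p 0.0753) and 1.38 (SE 0.55, adjusted p 0.11).

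**Figure D3:**
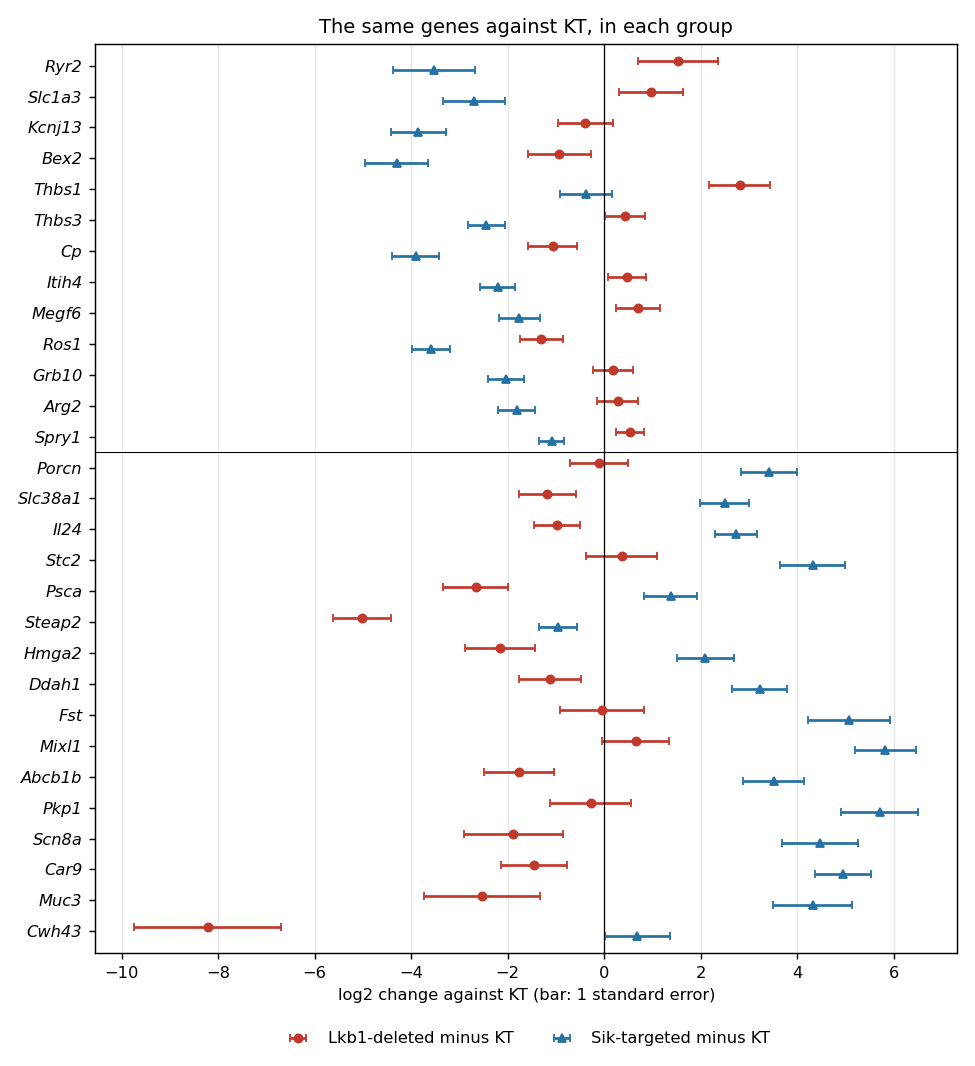
Points give the log2 change against KT in Lkb1-deleted (circles) and Sik-targeted cells (triangles) with bars of 1 standard error, for the 29 named genes that passed between the 2 groups. Both changes share the 4 KT libraries. Car9, Mixl1 and Pkp1 lie between -1.45 and 0.65 in Lkb1-deleted and between 4.95 and 5.83 in Sik-targeted cells, and Thbs1, Steap2 and Cwh43 are the genes that passed in Lkb1-deleted cells.

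Glycolysis and hypoxia genes were lower in Lkb1-deleted cells by median. Of 27 tested members 2 passed, Car9 and Stc2, both lower (0.118% of all genes passed in that direction). An unadjusted p under 0.05 was seen in 11, all lower, against 12.7% of all genes in either direction. The median difference was -0.81 against -0.02 for all genes. Egln3, an oxygen-sensing hydroxylase induced by hypoxia, stood at 2.19, 1.34 and 0.184 CPM in Lkb1-deleted libraries, 6.82, 4.27 and 13.2 with sgSik1 and 10.4 and 7.96 with sgSik1-3, without overlap, a difference of -2.73 (SE 0.67, adjusted p 0.113) and, without Lkb1-deleted replicate 1, of -3.36 (SE 0.79, adjusted p 0.0214). Pfkl, the liver-type phosphofructokinase, stood at 43.9, 13.8 and 20.4 CPM in Lkb1-deleted libraries, 251, 26.6 and 48.4 with sgSik1 and 60.5 and 67.3 with sgSik1-3, overlapping through Lkb1-deleted replicate 1 and sgSik1 replicate 2, a difference of -1.80 (SE 0.65, adjusted p 0.264) and, without replicate 1, of -2.41 (SE 0.74, adjusted p 0.0745). Without Lkb1-deleted replicate 1, 8 of the 27 passed, all lower in Lkb1-deleted cells (2.44% of all genes passed in that direction), with a median of -1.49.

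Cell cycle genes had a median difference of -0.98, though none of 30 passed, where 0.221% of all genes did. At an unadjusted p under 0.05 there were 10 lower and 1 higher in Lkb1-deleted cells, against 12.7% of all genes in either direction. The groups did not overlap for 7 members, all lower, against 5.38% of all genes in either direction. The proliferation marker Mki67 stood at 28.7, 19.1 and 11.4 CPM in Lkb1-deleted libraries, 40.4, 48.3 and 84.4 with sgSik1, 130 and 66.2 with sgSik1-3 and 7.37 to 24.6 in KT libraries, a difference of -1.90 (SE 0.49, adjusted p 0.133). The cyclin gene Ccna2 and the ribonucleotide reductase gene Rrm2 also did not overlap, with differences of -1.48 (SE 0.53, adjusted p 0.261) and -2.03 (SE 0.68, adjusted p 0.232). Without Lkb1-deleted replicate 1, 5 of 30 passed, all lower (2.44% of all genes passed in that direction), Mki67 at -2.28 (SE 0.57, adjusted p 0.0308) among them.

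Genes of AT2 cells, the surfactant-making cells of the alveolus from which such tumours often grow, leaned the other way without a call. Of 26 none passed, where 0.221% of all genes did, and the median difference was 0.93. An unadjusted p under 0.05 was seen in 8, all higher in Lkb1-deleted cells, against 12.7% of all genes in either direction. Without replicate 1, 5 passed, all higher (2.21% of all genes passed in that direction), while the median was smaller, at 0.77. Lamp3, a lysosomal protein of lamellar bodies, stood at 603, 760 and 624 CPM in Lkb1-deleted libraries, 29.3, 351 and 145 with sgSik1 and 150 and 43.1 with sgSik1-3, a difference of 2.20 (SE 0.59, adjusted p 0.145) without overlap. Lpcat1, which remodels surfactant lipid, stood at 67.7, 335 and 407 CPM in Lkb1-deleted libraries, 89.2, 131 and 88.4 with sgSik1 and 71.6 and 59 with sgSik1-3, where replicate 1 lay with the Sik-targeted libraries, a difference of 1.62 (SE 0.46, adjusted p 0.169) and of 2.07 (SE 0.37, adjusted p 0.00603) without replicate 1. Scd1, a lipid desaturase, is not on the AT2 list but on that of lipid and sterol synthesis. It had 2380, 5970 and 9840 CPM in Lkb1-deleted libraries, 1230, 2250 and 754 with sgSik1 and 508 and 693 with sgSik1-3. It missed the threshold at 2.48 (SE 0.54, adjusted p 0.0727), but passed without replicate 1 at 2.85 (SE 0.53, adjusted p 0.00656).

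Gastric and gut genes, which lung tumours can switch on when they lose lung identity, showed the split within the Lkb1-deleted group. Their mean log2 level was 4.43 in replicate 1 against 1.44 and 2.42 in replicates 2 and 3, and 3.67 to 4.94 in Sik-targeted libraries. Of 27 members Psca alone passed, lower in Lkb1-deleted cells (0.118% of all genes passed in that direction), and the median was -0.79. Without replicate 1, 11 passed, all lower in Lkb1-deleted cells (2.44% of all genes), with a median of -3.59. Lgals4, a gut galectin, stood at 29.4, 4.12 and 4.04 CPM in Lkb1-deleted libraries, 64.2, 20.5 and 45.4 with sgSik1 and 32.1 and 53.2 with sgSik1-3, with differences of -1.77 (SE 0.62, adjusted p 0.252) and, without replicate 1, -3.40 (SE 0.56, adjusted p 0.00328). Of 14 chromatin and progression genes Ros1 passed upward and Hmga2 and Mixl1 downward, and of 8 squamous and basal genes Pkp1 alone passed, downward. With all libraries 0.103% of all genes passed higher and 0.118% lower. Without replicate 1, 1 higher and 4 lower passed in the first list, and 1 higher and 3 lower in the second. Of all genes 2.21% passed higher and 2.44% lower in that fit.

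CREB and CRTC targets, which SIKs restrain, gave no call between the groups. Of 26 none passed (0.221% of all genes), with a median difference of -0.11 (3 at an unadjusted p under 0.05, against 12.7% of all genes). None passed without replicate 1 (4.65% of all genes), with a median of -0.25. Against KT their median changes were 1.70 in Lkb1-deleted cells, where 8 of 26 passed (1.16% of all genes), and 1.81 in Sik-targeted cells, where 15 passed (12.4% of all genes). These counts rest on the comparisons with KT whose totals fell to 13 and 577 with 1 KT library left out. Rgs2, a G protein regulator, stood at 10.4, 13 and 2.75 CPM in Lkb1-deleted libraries, 44.3, 52.1 and 42.1 with sgSik1 and 11.3 and 62.4 with sgSik1-3, with overlap and a difference of -2.27 (SE 0.65, adjusted p 0.169). Pde4b, which degrades cyclic AMP, stood at 69.5, 100 and 74 CPM in Lkb1-deleted libraries, 121, 114 and 188 with sgSik1 and 149 and 142 with sgSik1-3 against 8.5 to 38.7 in KT, a difference of -0.81 (SE 0.40, adjusted p 0.415) without overlap.

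AMPK-linked genes, where Lkb1 loss but not Sik targeting removes the upstream kinase, gave no call. Of 23 genes of lipid oxidation and autophagy none passed (median 0.17), and of 23 genes of the Lkb1 complex and its substrate kinases none passed (median 0.20). Only 0.221% of all genes passed, so no call in 23 genes does not show that these genes were unchanged. Prkaa2, an AMPK catalytic subunit, stood at 6.56, 10.4 and 23.1 CPM in Lkb1-deleted libraries, 1.42, 8.68 and 2.84 with sgSik1 and 1.42 and 0.543 with sgSik1-3, and Prkag2, a regulatory subunit, at 5.22, 15.1 and 12.9 CPM in Lkb1-deleted libraries, 3.13, 5.98 and 3.55 with sgSik1 and 1.89 and 2.71 with sgSik1-3. Both overlapped, with differences of 2.10 (SE 0.62, adjusted p 0.184) and 1.66 (SE 0.43, adjusted p 0.133), and passed without Lkb1-deleted replicate 1 at 2.41 (SE 0.64, adjusted p 0.0397) and 1.99 (SE 0.44, adjusted p 0.0157). Acaca, the acetyl-CoA carboxylase that AMPK inhibits, stood at 18, 65.8 and 71.3 CPM in Lkb1-deleted libraries, 14.5, 24.2 and 26.5 with sgSik1 and 18.9 and 19 with sgSik1-3, replicate 1 again at the Sik-targeted level, with 1.32 (SE 0.38, adjusted p 0.169) and, without that replicate, 1.71 (SE 0.32, adjusted p 0.00708).

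MAPK output (20 genes) and TGF-beta genes (21 genes) each had 1 member that passed, Spry1 and Thbs1, against 3 higher, and 3 higher with 2 lower, without Lkb1-deleted replicate 1. Of all genes 0.221% passed with all libraries, and 2.21% passed higher and 2.44% lower without that replicate. Etv1, a MAPK-dependent transcription factor, had 3.52, 26.2 and 11.4 CPM in Lkb1-deleted libraries, 0.853, 4.98 and 0.327 with sgSik1 and 0.945 and 1.27 with sgSik1-3, a difference of 3.02 (SE 0.71, adjusted p 0.103) with overlap, and of 3.46 (SE 0.66, adjusted p 0.00743) without that replicate. Tgfbr1, a TGF-beta receptor, had 115, 72.4 and 51.8 CPM in Lkb1-deleted libraries, 86.1, 202 and 363 with sgSik1 and 200 and 340 with sgSik1-3, a difference of -1.58 (SE 0.47, adjusted p 0.185) and, without that replicate, of -1.95 (SE 0.54, adjusted p 0.0497). The YAP target Ctgf did not overlap, at 14.1, 23.7 and 15.6 CPM in Lkb1-deleted libraries, 102, 63.5 and 39 with sgSik1 and 75.6 and 49.2 with sgSik1-3, a difference of -1.88 (SE 0.42, adjusted p 0.0834). MHC class II genes had a median of 1.35 over 8 members with no call, and H2-Ab1 stood at 71.4, 345 and 389 CPM in Lkb1-deleted libraries, 83.8, 219 and 41 with sgSik1 and 17.2 and 38.4 with sgSik1-3.

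**Figure D4:**
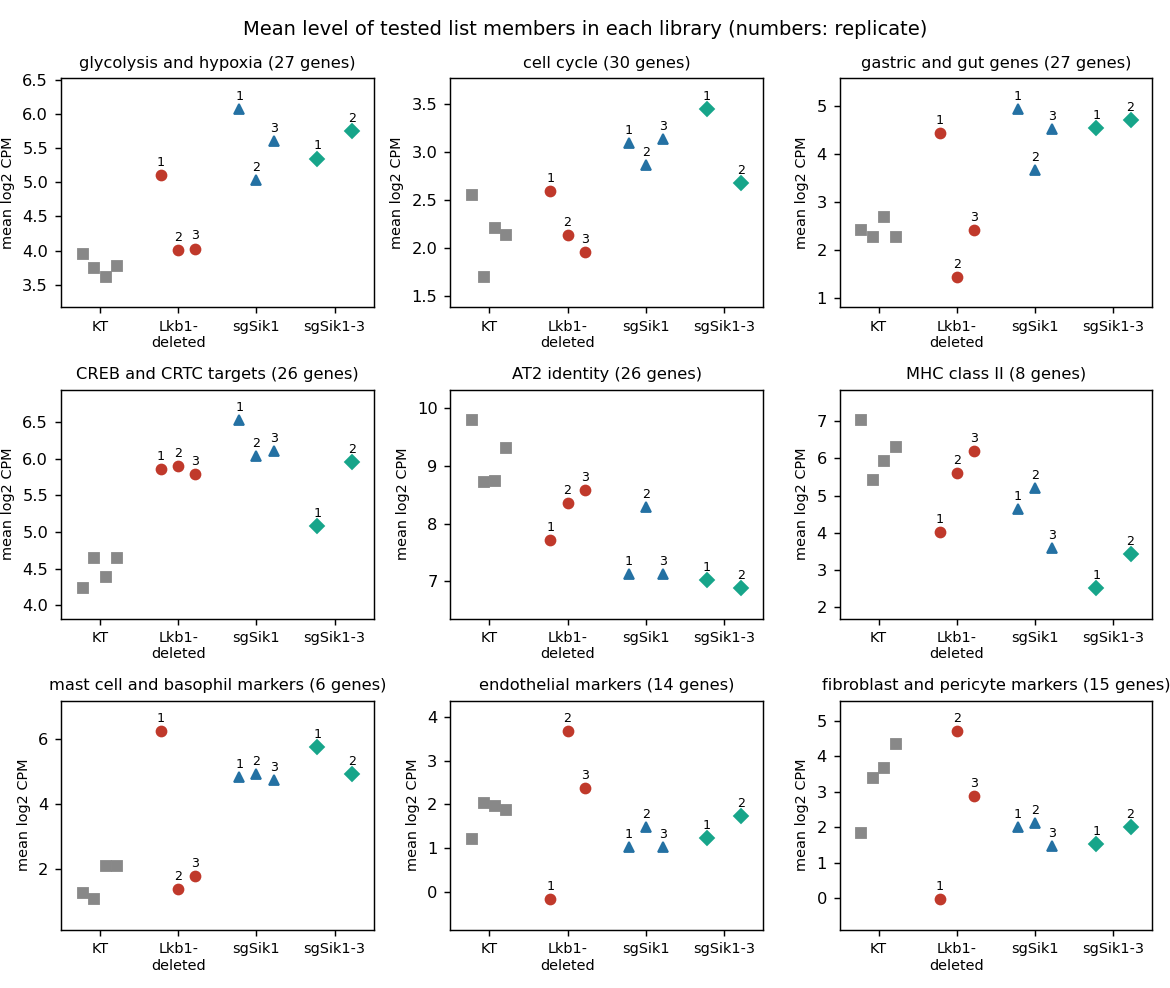
Panels plot the mean log2 CPM (0.5 added) of the tested members of 9 lists in each library, with the replicate number above each Lkb1-deleted, sgSik1 and sgSik1-3 point; the vertical scale differs between panels. The gastric, mast cell, endothelial and fibroblast panels separate replicate 1 from replicates 2 and 3.

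Markers of other cells moved with the same split. Endothelial markers (14 tested, 0 passed, median 1.81) summed to 13.6, 304 and 122 CPM in Lkb1-deleted replicates 1 to 3 and to 30.7 to 64.8 in Sik-targeted libraries, and the defining marker Pecam1 stood at 0, 32.8 and 31.4 CPM against 4.56 to 9.05. All 17 listed fibroblast and pericyte markers (15 tested, 0 passed, median 2.32) summed to 18.3, 821 and 279 CPM against 149 to 441. Col1a1 stood at 0.972, 113 and 25 CPM against 6.28 to 25.3. With all libraries only 0.221% of all genes passed, so no call in these lists does not show that they were unchanged. Without replicate 1, 7 endothelial and 8 fibroblast markers passed, all higher in Lkb1-deleted cells (2.21% of all genes passed in that direction). In these bulk samples fewer cells of a type and less RNA per cell cannot be told apart, and the part of other cells in the results above was not tested.

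The 6 tested mast cell and basophil markers did not move as one. All 13 listed markers, tested or not, summed to 5260, 43.1 and 39.1 CPM in Lkb1-deleted replicates 1 to 3 and to 920 to 2980 in Sik-targeted libraries. The protease gene Mcpt2 stood at 992, 0.206 and 1.1 CPM in Lkb1-deleted libraries, 23, 114 and 122 with sgSik1, 341 and 63.3 with sgSik1-3 and 0 to 2.12 in KT libraries, a difference of 1.32 (SE 1.46, adjusted p 0.758) that became -7.82 (SE 1.33, adjusted p 0.00418) without Lkb1-deleted replicate 1. Tpsab1, a mast cell tryptase, stood at 30.5, 0.206 and 0.551 CPM in Lkb1-deleted libraries, 14.8, 8.83 and 5.95 with sgSik1 and 37.1 and 14.8 with sgSik1-3, with -0.63 (SE 1.04, adjusted p 0.85) and, without replicate 1, -5.49 (SE 0.93, adjusted p 0.00406). Kit, a growth factor receptor of mast cells, and Hdc, which makes histamine, had positive differences without a call, 1.51 (SE 0.71, adjusted p 0.393) and 1.78 (SE 0.71, adjusted p 0.323) and, without replicate 1, 2.01 (SE 0.66, adjusted p 0.0931) and 2.25 (SE 0.67, adjusted p 0.0656). The defining mast cell marker Ms4a2 was at 0 in all 8 libraries. All 19 listed macrophage markers (14 tested, 0 passed, median 0.59) summed to 18.3 to 26.3 CPM in Lkb1-deleted and 22.8 to 33.7 in Sik-targeted libraries. The 9 tested leukocyte markers also gave no call (median -0.42), where 0.221% of all genes passed. Their mean log2 levels did not overlap, at 1.43, 0.71 and 0.61 in Lkb1-deleted replicates 1 to 3 and 1.49 to 2.20 in Sik-targeted libraries.

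Genes that changed the same way against KT in both groups were measured for how close the groups lay. Skil, a brake on TGF-beta signalling, stood at 215, 182 and 183 CPM in Lkb1-deleted libraries, 114, 148 and 181 with sgSik1, 120 and 122 with sgSik1-3 and 50.3 to 69.2 in KT libraries, and the 95% interval of the direct difference was -0.08 to 1.07. Slc38a2, an amino acid transporter, stood at 575, 632 and 620 CPM in Lkb1-deleted libraries, 608, 535 and 660 with sgSik1 and 618 and 724 with sgSik1-3 against 160 to 321 in KT, with an interval of -0.68 to 0.58. Hbegf, an EGF receptor ligand, stood at 172, 201 and 268 CPM in Lkb1-deleted libraries, 134, 138 and 158 with sgSik1 and 136 and 206 with sgSik1-3 against 41.3 to 80 in KT, with an interval of -0.18 to 1.12. For Pnrc1, Brd2, Ripk4 and Rasgef1b the intervals were -0.75 to 0.43, -0.15 to 1.10, -0.01 to 1.19 and 0.08 to 1.33. The interval of Rasgef1b alone left out 0 (adjusted p 0.337), and the Lkb1-deleted libraries of Skil, Brd2 and Rasgef1b lay above all Sik-targeted ones. These genes were chosen for narrow intervals, which bound the size of a difference without showing that there is none.

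The guide sets were then set against Lkb1-deleted cells one by one, in a fit of 15303 genes in 4 groups. Against sgSik1 alone 8 genes passed (0.0523%), all higher in sgSik1 cells: Car9, Mixl1, Steap2, Il24, Abcb1b, Psca, Muc3 and Ddah1. Against sgSik1-3 alone 20 passed (0.131%), 6 higher (0.0392%) and 14 lower (0.0915%) in Lkb1-deleted cells, and 1370 and 1473 genes had an unadjusted p under 0.05. Car9 differed by -6.06 (SE 0.72, adjusted p 0.00409) from sgSik1 and by -6.81 (SE 0.75, adjusted p 0.00107) from sgSik1-3. Dclk1, a microtubule-linked kinase, Kalrn, and Slain1, a microtubule regulator, passed against sgSik1-3 with differences of 4.22, 3.63 and 3.66 (adjusted p 0.00618, 0.0308 and 0.039). Dclk1, Kalrn and Slain1 did not pass against all Sik-targeted libraries. Without Lkb1-deleted replicate 1, Kalrn and Slain1 did, at 2.18 (SE 0.58, adjusted p 0.0414) and 2.72 (SE 0.51, adjusted p 0.00702). Dclk1 again did not, at 1.52 (SE 0.63, adjusted p 0.195). Dclk1 stood at 27.9, 12.3 and 18.4 CPM in Lkb1-deleted libraries, 7.96, 7.83 and 8.19 with sgSik1 and 1.18 and 0.905 with sgSik1-3, the sgSik1-3 pair being the low one.

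Between sgSik1-3 and sgSik1 themselves no gene passed in edgeR (0%), with 528 at an unadjusted p under 0.05, 6 that passed in DESeq2 and 0 in limma-voom. Dclk1 differed by -2.94 (adjusted p 0.628) and Abcb1b by 1.90 (adjusted p 1) between them. A call against one guide set and not the other is therefore not shown to differ between the sets.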

How the data were processed

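Bulk RNA-seq of cells sorted from 12 mouse lung tumours was used. Per the labels' protocols, a mix of collagenase IV, dispase and trypsin dissociated the tumours in 30 minutes, cDNA was amplified with the Ovation system, and TruSeq DNA libraries were read in pairs of 100 bases. The submitters' processing notes name STAR 2.4.2a, HTSeq and mm10, while neither annotation nor strand setting is given in the sources used here, so overlapping and antisense genes may share reads. The deposited values are whole-number counts per gene symbol made by the authors (30743 symbols), with no molecule tags, so counting intervals cover counting error only. Libraries of a group were not copies of each other (lowest chi-square per degree of freedom 15.1).

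The test was the 2-sided quasi-likelihood F test of edgeR 4.0.16 (R 4.3.3), with robust estimates, TMM scaling and genes kept by filterByExpr. Adjusted p-values (Benjamini-Hochberg) cover every gene in a fit, with a threshold of 0.05. The 12 libraries entered as 3 genotype groups (13575 genes; common dispersion 0.262) and again as 4 title groups (15303 genes; 0.287), so the groups share one estimate of the spread. CPM use TMM effective library sizes. A gene at 0 in a group is bounded by 3 counts over the group.

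Named genes are the 4 targets, the 15 largest differences per direction among genes that passed with a mean of at least 2 CPM and no overlap (filled to 15 by the smallest p), genes that also passed against KT, up to 4 genes per list by p, up to 8 shared genes with the narrowest interval, and 5 per direction for each guide set. Predicted genes, clones and Y-linked genes were counted only. The comparison, the 46 gene lists (844 of 855 entries in the table) and the tests were chosen with earlier results of these data known, so a list's count is no independent evidence. Coordinates and the 250-base promoter windows are from RefSeq (GRCm38.p6, the mm10 assembly). DESeq2 1.42.0, limma 3.58.1 and other settings served as alternatives. The fit was tested on simulated data with known changes.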

Additional observations from a re-analysis of the deposited data

Results flagged for a closer look

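Among the 34 called or targeted genes, 1 had a Sik-targeted library far from the other 4 (Dixon's test on log2 CPM). Pkp1, the desmosomal plakophilin 1, stood at 21.6 CPM in sgSik1 replicate 2 and at 81.4 to 102 CPM in the other Sik-targeted libraries, a gap of 0.85 of the group's range against a critical value of 0.71. It was still above every Lkb1-deleted library (0.103 to 3.28 CPM). Chance flags about 1 in 20 groups, and the cause was not tested.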

How the results depend on the processing

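The counts were 30 genes between Lkb1-deleted and Sik-targeted cells, 8 against sgSik1, 20 against sgSik1-3 and 0 between the guide sets, and are given below in that order. With DESeq2 the counts were 312, 152, 264 and 6, and without a low-count filter 698, 416, 563 and 44. limma-voom gave 23, 1, 12 and 0. With only the 8 compared libraries they were 0, 0, 7 and 0, and without KT replicates 2 and 3 they were 9, 0, 11 and 0. A term for Y-linked counts gave 22, 6, 595 and 340. Each guide set lies wholly on one side of the Y-linked split. In the fit by guide set this term therefore rests only on Lkb1-deleted replicate 1 against replicates 2 and 3. Its counts do not separate guide set from Y-linked counts. Leaving out 1 library gave 5 to 710 for the first comparison, 1 to 333 against sgSik1, 4 to 589 against sgSik1-3 and 0 to 4 between guide sets. Without both Lkb1-deleted replicate 1 and sgSik1 replicate 1 they were 902, 240, 1072 and 4, and this and the next alternatives were chosen after seeing the data. Among libraries with Y-linked counts (Lkb1-deleted replicates 2 and 3 and the sgSik1-3 libraries) 644 passed, all 30 among them. Among those without, Lkb1-deleted replicate 1 stood alone against the sgSik1 libraries. There 29 of the 30 kept their direction and Ryr2 turned to -0.68. The cause was not tested. Mcpt2 (1.32 in all libraries) ranged from -7.82, without Lkb1-deleted replicate 1, to 2.03 with 1 library left out, and was -8.12 without both first replicates and -8.43 among libraries with Y-linked counts.

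The titles do not say whether replicate numbers pair samples. Correlations between Lkb1-deleted and Sik-targeted libraries were -0.23 to 0.22 for the same number and -0.24 to 0.18 for different numbers. They use deviations from means of 2 or 3 libraries and cannot decide whether samples were paired. With a replicate block 10 genes passed, all among the 30, with 7 against sgSik1, 16 against sgSik1-3 and 0 between the guide sets. Depth limits genes under about 1 CPM, where a library holds few counts.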

Other observations

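Hspa1a and Hsp90aa1, from the list of transcripts that respond to tissue dissociation, had their highest levels in Lkb1-deleted replicates 1 and 2, with no call. Hspa1a, an inducible chaperone, stood at 964, 691 and 191 CPM in Lkb1-deleted replicates 1 to 3, at 209, 171 and 110 with sgSik1 and at 88.1 and 143 with sgSik1-3, a difference of 2.09 (SE 0.44, adjusted p 0.0647). Hsp90aa1, the inducible HSP90, stood at 1550, 1270 and 713 CPM in Lkb1-deleted libraries, 117, 651 and 254 with sgSik1 and 473 and 331 with sgSik1-3 without overlap, a difference of 1.69 (SE 0.44, adjusted p 0.135). Of the 24 tested members of the list none passed, where 0.221% of all genes did, and the median was 0.49. An unadjusted p under 0.05 was seen in 7, all higher in Lkb1-deleted cells, against 12.7% of all genes in either direction.

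Mt2, a metallothionein that binds zinc and copper, stood at 80.8, 91.2 and 167 CPM in Lkb1-deleted libraries, 995, 182 and 251 with sgSik1, 357 and 253 with sgSik1-3 and 17.5 to 34 in KT libraries, a difference between the targeted groups of -1.85 (SE 0.54, adjusted p 0.172). KT, Lkb1-deleted and Sik-targeted libraries formed 3 separate ranges in ascending order. None of the 8 tested metallothionein and zinc transporter genes passed, where 0.221% of all genes did. The mucin gene Muc4 had 534, 120 and 167 CPM in Lkb1-deleted libraries, 52, 112 and 93.8 with sgSik1 and 94.5 and 62.3 with sgSik1-3, a difference of 1.72 (SE 0.44, adjusted p 0.128), and of 0.78 (SE 0.38, adjusted p 0.286) without Lkb1-deleted replicate 1, the highest library. Muc20 ranged over 1.65 to 156 CPM in Lkb1-deleted and 0.382 to 13.1 in Sik-targeted libraries, with overlap and a difference of 3.95 (SE 1.05, adjusted p 0.151), and of 2.69 (SE 0.96, adjusted p 0.125) without that replicate. Lipid and sterol synthesis genes, Scd1 (given above) among them, did not lean one way. Sqle, a sterol synthesis enzyme, differed by -1.92 (SE 0.40, adjusted p 0.059), and passed without that replicate at -1.89 (SE 0.48, adjusted p 0.0342), while Scd2, a desaturase, differed by 1.19 (SE 0.38, adjusted p 0.21), without a call. Neither gene overlapped between the groups.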
